A study of Homo sapiens with 8 samples.

Results

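The genes described here encode eIF4E, the proteins that bind it, and the scaffold and helicase that join it at the cap of mRNA, measured in human multiple myeloma cells in which XBP1 or IRE1 had been targeted by shRNA. They were EIF4EBP1, EIF4EBP2, EIF4E, EIF4E2, EIF4E3, EIF4G1, EIF4G2, EIF4G3, EIF4A1 and EIF4A2. Every probe set whose only gene symbol in the array annotation was one of these 10 genes was taken, which gave 25 of the 54675 probe sets on the array, for 8 of the 10 genes. EIF4EBP1 had 1 such probe set, EIF4EBP2 and EIF4E had 5 each, EIF4E2 and EIF4E3 had 4 each, EIF4G2 had 3, EIF4G1 had 2 and EIF4A2 had 1. EIF4A1 and EIF4G3 had 0 and were not analysed here. No filter on low values was applied, so all 25 probe sets entered every fit.

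The series held 8 arrays, 1 for each line and treatment. RPMI-8226 and JJN3, both established myeloma lines, were each left uninfected, or infected with a lentivirus carrying a non-targeting (NT) shRNA, an shRNA against XBP1 or an shRNA against IRE1, the stress sensor encoded by ERN1. Infected cells were kept for 16 h in diluted virus supernatant (30 to 50%) with polybrene at 8 µg/mL, and all cells were harvested at 96 h. Each treatment therefore had 2 arrays (n = 2), which were 2 different lines and not repeat cultures of one line.

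Translation of most mRNAs begins when eIF4E binds the methylated cap and recruits the scaffold eIF4G1 with the RNA helicase eIF4A, together called eIF4F. The binding proteins 4E-BP1 (EIF4EBP1) and 4E-BP2 (EIF4EBP2) compete with eIF4G for eIF4E, and the kinase mTORC1 phosphorylates them so that they let go. EIF4E2 encodes 4EHP, a cap-binding relative that does not bind eIF4G1 well and takes part in repression of chosen mRNAs, and EIF4E3 encodes a further cap-binding relative. EIF4G2 encodes DAP5, a scaffold that lacks the eIF4E-binding region. Plasma cells and myeloma cells secrete large amounts of immunoglobulin, and the IRE1-XBP1 pathway is a main branch of their unfolded protein response.

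The 250 bases before the annotated start are shown for 3 genes whose values are described at length: the cap-binding protein EIF4E, its relative EIF4E2, and the scaffold EIF4G1. They are RefSeq sequences on GRCh38.p14, written 5′ to 3′ on the strand of the gene, with each match to the E-box letters CACGTG in capitals. The EIF4E window is chr4:98929134-98929383 on the minus strand, that of EIF4E2 is chr2:232550439-232550688 on the plus strand, and that of EIF4G1 is chr3:184314356-184314605 on the plus strand.
EIF4E: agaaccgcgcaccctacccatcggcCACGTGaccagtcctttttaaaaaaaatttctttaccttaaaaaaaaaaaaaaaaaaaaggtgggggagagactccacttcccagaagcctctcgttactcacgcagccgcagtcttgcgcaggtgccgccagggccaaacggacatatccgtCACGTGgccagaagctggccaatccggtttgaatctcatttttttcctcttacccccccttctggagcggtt
EIF4E2: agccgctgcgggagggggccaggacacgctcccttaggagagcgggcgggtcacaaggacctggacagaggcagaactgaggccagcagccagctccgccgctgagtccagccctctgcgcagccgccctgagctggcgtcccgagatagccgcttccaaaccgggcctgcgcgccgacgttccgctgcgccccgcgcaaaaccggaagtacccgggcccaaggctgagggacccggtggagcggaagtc
EIF4G1: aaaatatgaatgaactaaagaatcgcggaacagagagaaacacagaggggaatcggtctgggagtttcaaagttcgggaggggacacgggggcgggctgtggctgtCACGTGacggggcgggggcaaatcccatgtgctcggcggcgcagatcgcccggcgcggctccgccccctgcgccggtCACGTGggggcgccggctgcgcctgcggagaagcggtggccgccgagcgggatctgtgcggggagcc
CACGTG, which reads the same on both strands, began 72 and 225 bases before the start of EIF4E and 67 and 144 bases before that of EIF4G1. It was found in 6.34% of the 35116 windows of this length in the table, and not in the EIF4E2 window shown. The table held 3 windows for EIF4G1 and 2 for EIF4E2, and the windows not shown had no match to it. The letters TGATGNAA, searched on both strands and found in 3.14% of windows, were matched 13 bases before 1 of the 3 annotated starts of EIF4E3 (chr3:71729119-71729368, minus strand) and in neither of its other windows. A match is a description of letters only.

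The windows were also searched for the unfolded protein response element core, the cAMP response element and the endoplasmic reticulum stress element. These were found in 0.612%, 1.65% and 0.074% of the 35116 windows. None of the 16 windows held for 9 of the 10 genes had a match to them. EIF4EBP1 had no window, so its start was not searched. Values below are on a scale taken as log2, with each probe set centred on its median over the 8 arrays, so they give differences between arrays and no level of expression. With the XBP1 shRNA label, XBP1 mRNA (200670_at) was at 65.9% of NT shRNA for RPMI-8226 and 45.6% for JJN3. The other XBP1 probe set, 242021_at, was at 87.1% and 102.3%. ERN1 mRNA (235745_at) on the array labelled IRE1 shRNA stood at 53.9% of NT shRNA in JJN3 but at 129.8% in RPMI-8226, where it was 64.1% of uninfected, so the label of that RPMI-8226 array was not borne out against NT shRNA. In that comparison ERN1 227755_at was at 117.1% (RPMI-8226) and 44.7% (JJN3) of NT shRNA, and 207061_at at 88.6% and 114.3%. In 235745_at and 200670_at each target was also lower on arrays of the other shRNA. ERN1 was at 36.7% (RPMI-8226) and 42.9% (JJN3) of NT shRNA with XBP1 shRNA. XBP1 was at 64.7% and 16.8% with IRE1 shRNA, no higher than with its own shRNA. With the same shRNAs ERN1 227755_at was at 39.1% and 38.3%, ERN1 207061_at at 91.0% and 99.1%, and XBP1 242021_at at 99.6% and 107.3%. The median of the poly-A control probe sets was highest on the XBP1 shRNA array in each line, at 0.43 in RPMI-8226 and 0.19 in JJN3, and the hybridisation controls stood at 0.42 on the JJN3 IRE1 shRNA array. The median of 21 probe sets of 11 plasma cell marker genes, XBP1 itself among them, ran from -0.13 to 0.15 in RPMI-8226 and from -0.20 to 0.13 in JJN3, lowest on the XBP1 shRNA array in both. For XBP1 shRNA against NT shRNA 17 of the 21 were below 0, with a median of -0.45 against a median of 0.00059 over all probe sets. Only 1 of the 21 was 2-fold lower in both lines (0.275% of all). It was PRDM1 228964_at, at -1.38 in RPMI-8226 and -1.08 in JJN3, and no other PRDM1 probe set was. Against uninfected cells it was only IRF4 204562_at, at -1.59 and -1.34 (0.375% of all), and no other IRF4 probe set. The part of these in the results was not tested. Since values are centred, defining markers cannot be read as present or absent, and fewer cells of a type cannot be told apart from less RNA per cell.

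EIF4EBP1, the gene for 4E-BP1, had the widest spread within lines of the genes described here, with an SD of 1.10 over the 8 arrays once the mean of each line was taken off. In RPMI-8226 its probe set 221539_at stood at 0.15 (uninfected), 0.30 (NT shRNA), -1.69 (XBP1 shRNA) and -0.15 (IRE1 shRNA). In JJN3 the same order gave 0.67, 0.54, -2.29 and -1.04. In both lines the XBP1 shRNA array was the lowest and the IRE1 shRNA array the next, and neither overlapped the control arrays. EIF4EBP1 was among the genes chosen with its XBP1 shRNA difference already seen, so that difference is a description with no test. Against NT shRNA it was -2.41 ± 0.30 (SE, n = 2 lines), -1.99 in RPMI-8226 and -2.83 in JJN3, or 25.1% and 14.0% of the NT level, and it ranked 2 of 54613 probe sets by size. Against uninfected cells it was -2.40, 2-fold lower in both lines as in 0.375% of all probe sets. The IRE1 shRNA arrays lay above the XBP1 shRNA arrays by 1.54 in RPMI-8226 and 1.26 in JJN3, past 2-fold in both as in 0.306% of all. These comparisons share arrays.

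**Figure D1:**
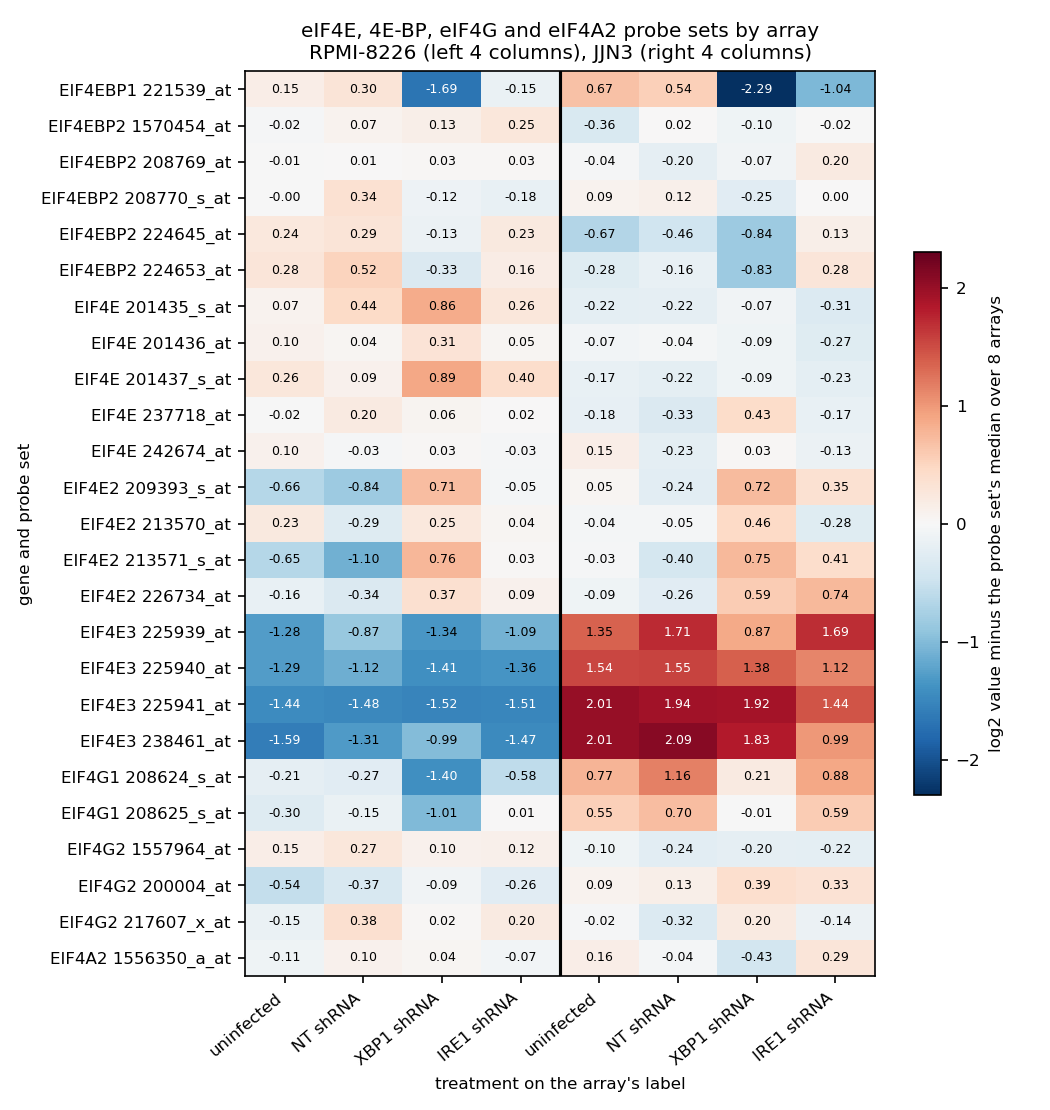
Deposited centred log2 values of the 25 probe sets on the 8 arrays, by line and treatment, one row per probe set. EIF4EBP1 is lowest on the XBP1 shRNA arrays (-1.69 and -2.29), and the 4 EIF4E3 rows separate the lines.

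The difference between IRE1 shRNA and uninfected cells is taken from arrays other than those of XBP1 shRNA against NT shRNA, but its SE and p use a spread pooled over all 8 arrays, on some of which EIF4EBP1 had been seen. limma with line as a block called 0 of the 25 probe sets at an adjusted p under 0.05 (Benjamini-Hochberg over 54613 probe sets), with 4 at an unadjusted p under 0.05; 0.00183% of all probe sets were called and 7.26% had an unadjusted p under 0.05. EIF4EBP1 differed by -1.01 ± 0.30 (SE, n = 2; limma adjusted p = 0.498), which did not pass the test. The lines were unequal: IRE1 shRNA stood at 80.8% of uninfected in RPMI-8226 and 30.6% in JJN3. With either the uninfected or the IRE1 shRNA array of JJN3 left out the difference was -0.54, with either RPMI-8226 array left out it was -1.47, and under cyclic loess scaling it was -0.40 (limma adjusted p from 0.203 to 1 over all alternatives). Against NT shRNA limma called 0 of 25 (5 at an unadjusted p under 0.05, against 9.47% of all; 0.0183% of all called), and EIF4EBP1 differed by -1.02 ± 0.30 (SE, n = 2; limma adjusted p = 0.308), by -0.46 in RPMI-8226 and -1.58 in JJN3. NT shRNA against uninfected cells gave 0.0093 for EIF4EBP1, -0.46 without the uninfected RPMI-8226 array and -0.27 without the NT shRNA JJN3 array. There limma called 0 of 25 (1 at an unadjusted p under 0.05, 225939_at of EIF4E3, against 5.57% of all; 0% of all called). Whether silencing differed between the lines was tested in a separate fit. It pooled XBP1 with IRE1 shRNA as silenced, and NT shRNA with uninfected cells as control. Its error is the spread between the unlike treatments pooled, which is wide where the shRNAs differ, as in EIF4EBP1. There limma called 0 of 25 (0 at an unadjusted p under 0.05, against 5.23% of all, with 0% of all called). For EIF4EBP1 the term was -1.12 ± 0.71 (SE, limma adjusted p = 0.967). That term was -0.35 without the RPMI-8226 IRE1 shRNA array, -0.49 without the JJN3 XBP1 shRNA array, -1.75 without the JJN3 IRE1 shRNA array, -1.89 with the XBP1 shRNA array of RPMI-8226 left out and -2.41 under cyclic loess scaling, with limma adjusted p-values of 0.597 or more over all its alternatives. A p that misses the threshold does not show that values did not differ.

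**Figure D2:**
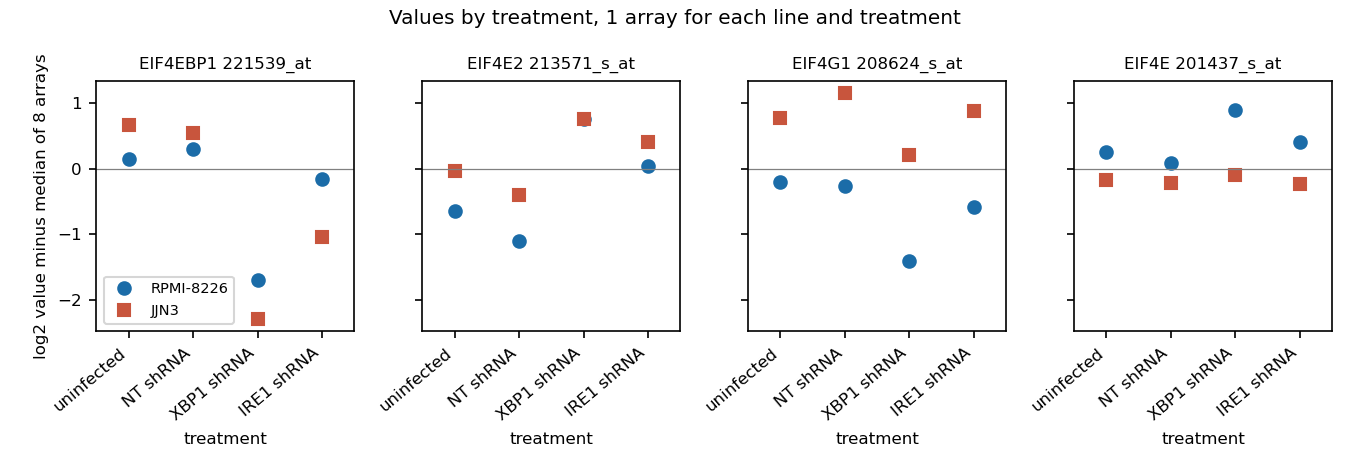
Centred log2 values of selected probe sets by treatment, with one point per array and a colour for each line. Both XBP1 shRNA points of EIF4EBP1 lie below all 6 others.

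EIF4EBP2, the gene for the related binding protein 4E-BP2, varied less and its probe sets did not move as one (pairwise r from -0.17 to 0.90 over 8 arrays). Probe set 224653_at stood at 0.28, 0.52, -0.33 and 0.16 in RPMI-8226 (uninfected, NT, XBP1 and IRE1 shRNA) and at -0.28, -0.16, -0.83 and 0.28 in JJN3. Probe set 224645_at stood at 0.24, 0.29, -0.13 and 0.23 in RPMI-8226 and at -0.67, -0.46, -0.84 and 0.13 in JJN3. In both probe sets the XBP1 shRNA array was the lowest of its line, while JJN3 had its highest value with IRE1 shRNA. The XBP1 shRNA difference from NT shRNA was -0.76 for 224653_at and -0.40 for 224645_at, given as a description. Probe sets 208770_s_at, 1570454_at and 208769_at stayed between -0.36 and 0.34 over the 8 arrays.

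EIF4E2, the gene for 4EHP, had higher values on the shRNA arrays than on the control arrays in 3 of its 4 probe sets, where EIF4EBP1 had lower ones. For 213571_s_at the values were -0.65, -1.10, 0.76 and 0.03 in RPMI-8226 and -0.03, -0.40, 0.75 and 0.41 in JJN3. For 209393_s_at they were -0.66, -0.84, 0.71 and -0.05 in RPMI-8226 and 0.05, -0.24, 0.72 and 0.35 in JJN3. Probe set 226734_at stood at -0.16, -0.34, 0.37 and 0.09 in RPMI-8226 and at -0.09, -0.26, 0.59 and 0.74 in JJN3. In these 3 probe sets both shRNA arrays lay above both control arrays in each line without overlap, whereas 213570_at did not follow them: it stood at 0.23, -0.29, 0.25 and 0.04 in RPMI-8226 and at -0.04, -0.05, 0.46 and -0.28 in JJN3. XBP1 shRNA against NT shRNA gave 1.51 for 213571_s_at (1.86 and 1.16 in the lines) and 1.26 for 209393_s_at, as a description. With IRE1 shRNA against NT shRNA, 213571_s_at differed by 0.97 ± 0.19 (SE, n = 2; limma adjusted p = 0.153), the smallest adjusted p of the 25 in that comparison, and did not pass. Against uninfected cells it differed by 0.56 ± 0.19 (SE, n = 2; limma adjusted p = 0.533).

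Counting both shRNAs against both controls, 4 of 25 probe sets were higher without overlap in both lines (3 of EIF4E2, and 200004_at of EIF4G2) and 4 were lower (EIF4EBP1, 208770_s_at of EIF4EBP2, and 225940_at and 225941_at of EIF4E3). Over all probe sets 4.36% were higher and 4.11% lower in this way; the count includes the arrays used in choosing the genes, and nothing is read from it. A 2-fold difference the same way in both lines, XBP1 shRNA against NT shRNA, was seen in 1 probe set that was higher (EIF4E2, 213571_s_at; 0.181% of all) and 1 that was lower (EIF4EBP1; 0.275% of all).

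**Figure D3:**
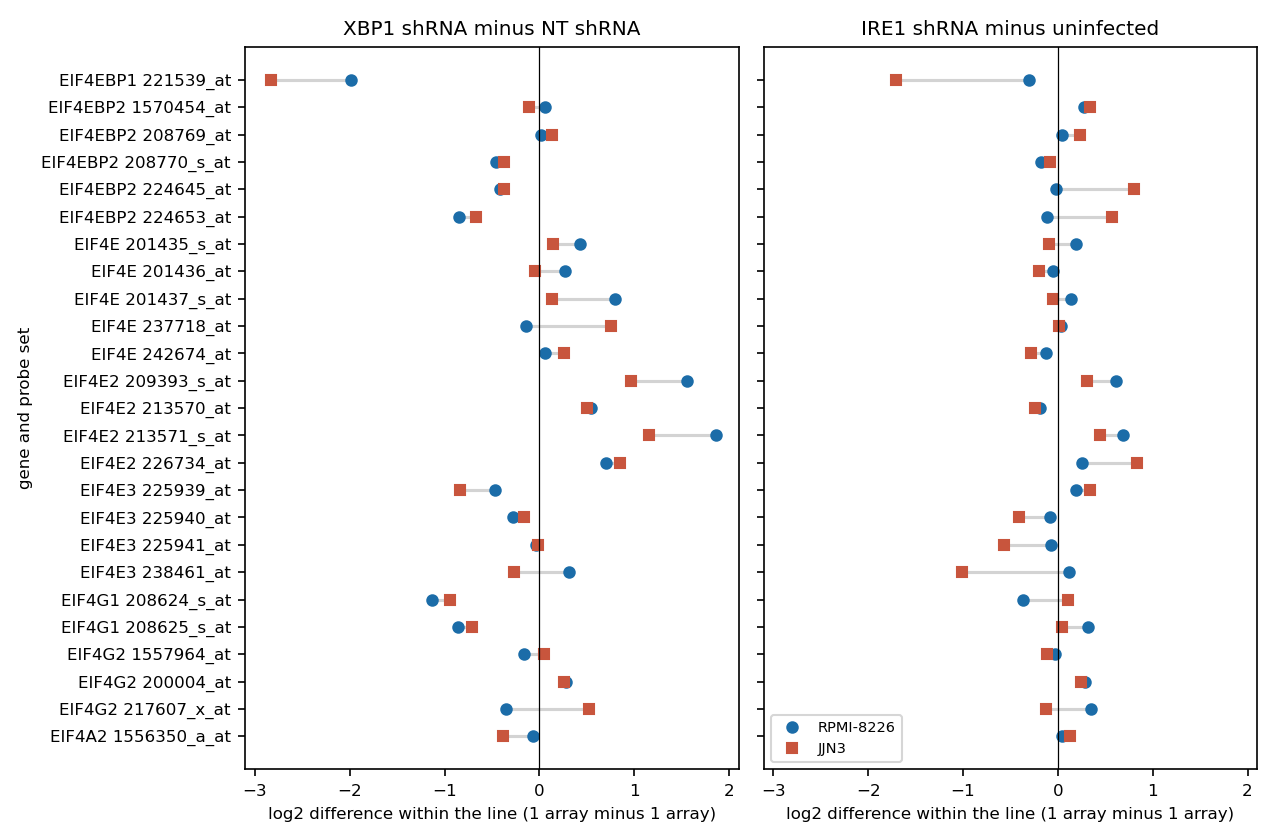
Differences between shRNA and control arrays within each line, on the log2 scale, for the probe sets described here. EIF4EBP1 lies lowest for XBP1 shRNA against NT shRNA, at -1.99 in RPMI-8226 and -2.83 in JJN3.

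The lines themselves differed in many of these genes. Of the 25 probe sets, 14 passed the test of JJN3 against RPMI-8226 (limma, 9 higher and 5 lower in JJN3, from 6 genes), or 56% of them, against 56.0% of all probe sets (22.8% higher and 33.3% lower), so the share equals the background. At an unadjusted p under 0.05 there were 15, against 61.6% of all. The difference between 3′ and 5′ actin probe sets ran from -0.61 to -0.43 in RPMI-8226 and from 0.13 to 0.42 in JJN3. The median of T and NK cell markers ran from 0.18 to 0.34 and from -0.26 to -0.08. Light chain genes (0.16 to 0.28 and -0.22 to -0.16) and stromal and epithelial markers (0.067 to 0.093 and -0.15 to -0.042) also stood apart. Myeloid and erythroid markers overlapped between the lines. The median of all probe sets tested ran from 0.027 to 0.058 and from -0.055 to -0.036. The part of these was not tested. Line and handling of the lines cannot be told apart. The arrays of the lines did not overlap in 10 of 25 probe sets, against 48.7% of all. Over all probe sets 12439 were called higher and 18163 lower in JJN3; under cyclic loess scaling this split was 13653 to 11959, and the median difference of all probe sets moved from -0.14 to -0.011.

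EIF4E3 set the lines apart most. Its 4 probe sets ran from -1.59 to -0.87 in RPMI-8226 and from 0.87 to 2.09 in JJN3, over all treatments. For 225941_at the values were -1.44, -1.48, -1.52 and -1.51 in RPMI-8226 and 2.01, 1.94, 1.92 and 1.44 in JJN3, so the lines stood far apart under each treatment. Each was higher in JJN3, by 2.55 (225939_at), 2.69 (225940_at), 3.31 (225941_at) and 3.07 (238461_at), with limma adjusted p-values down to 5.56e-08. The 4 probe sets moved together over the arrays (pairwise r of 0.94 or more), and 225941_at ranked 743 of 54613 by size. EIF4G1, the scaffold of eIF4F, was also higher in JJN3. Its probe set 208624_s_at stood at -0.21, -0.27, -1.40 and -0.58 in RPMI-8226 and at 0.77, 1.16, 0.21 and 0.88 in JJN3, a difference of 1.37 ± 0.12 (SE, 4 pairs of arrays; limma adjusted p = 1.71e-05). In each line its XBP1 shRNA array was the lowest, -1.13 and -0.95 from NT shRNA, again as a description. The other EIF4G1 probe set, 208625_s_at, stood at -0.30, -0.15, -1.01 and 0.01 in RPMI-8226 and at 0.55, 0.70, -0.01 and 0.59 in JJN3, and differed between lines by 0.82 ± 0.11 (limma adjusted p = 0.000204).

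**Figure D4:**
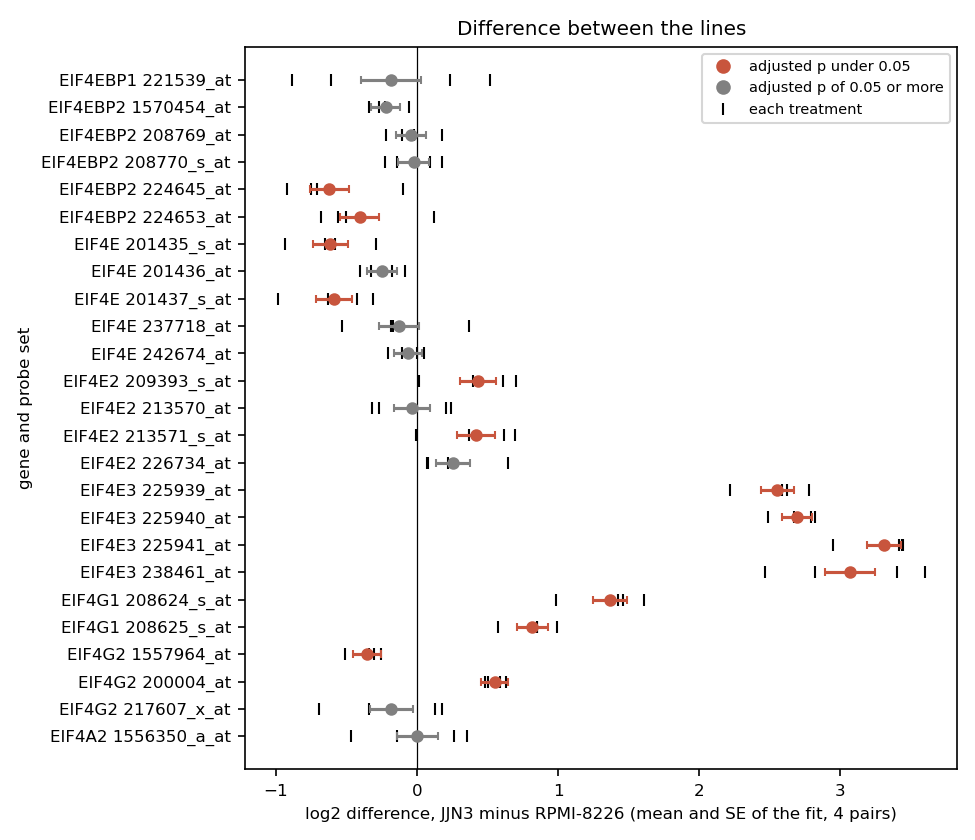
JJN3 minus RPMI-8226 on the log2 scale for the 25 probe sets, with standard errors from limma over 4 pairs of arrays. The EIF4E3 probe sets lie between 2.55 and 3.31, and EIF4EBP1 lies at -0.18.

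EIF4E itself was lower in JJN3. Probe set 201435_s_at stood at 0.07, 0.44, 0.86 and 0.26 in RPMI-8226 and at -0.22, -0.22, -0.07 and -0.31 in JJN3, so the lines did not overlap. The difference was -0.61 ± 0.12 (SE; limma adjusted p = 0.00245), and 201437_s_at gave -0.59 ± 0.13 (SE; limma adjusted p = 0.00388). The 201437_s_at values were 0.26, 0.09, 0.89 and 0.40 in RPMI-8226 and -0.17, -0.22, -0.09 and -0.23 in JJN3, with XBP1 shRNA highest in each line in both probe sets. The other EIF4E probe sets, 201436_at, 237718_at and 242674_at, ran from -0.33 to 0.43 and did not pass. EIF4EBP2 was lower in JJN3 in 224645_at (-0.62, limma adjusted p = 0.00494) and 224653_at (-0.41, limma adjusted p = 0.0341). The call of 224653_at was lost after median subtraction or cyclic loess, without the treatment block, and without an uninfected, NT shRNA or XBP1 shRNA array.

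EIF4E2 was higher in JJN3 in 209393_s_at (0.43, limma adjusted p = 0.0188) and 213571_s_at (0.42, limma adjusted p = 0.0233). Both calls were lost under quantile scaling (differences of 0.34 and 0.27, limma adjusted p = 0.124 and 0.195). They were also lost without the treatment block (limma adjusted p = 0.283 and 0.373), and without an uninfected, NT shRNA or IRE1 shRNA array. The probe sets of EIF4G2, the DAP5 gene, disagreed: 200004_at was higher in JJN3 by 0.55 ± 0.097 (SE; limma adjusted p = 0.00126), 1557964_at was lower, at -0.35 ± 0.10 (SE; limma adjusted p = 0.0147), and 217607_x_at gave -0.18 and did not pass. The values of 200004_at were -0.54, -0.37, -0.09 and -0.26 in RPMI-8226 and 0.09, 0.13, 0.39 and 0.33 in JJN3, without overlap. Those of 1557964_at were 0.15, 0.27, 0.10 and 0.12 against -0.10, -0.24, -0.20 and -0.22, and its call was lost under each of the 3 other scalings and without an NT shRNA array. EIF4A2, a helicase gene, stood at -0.11, 0.10, 0.04 and -0.07 in RPMI-8226 and at 0.16, -0.04, -0.43 and 0.29 in JJN3, and gave 0.0039 between the lines (limma adjusted p = 0.984). EIF4EBP1 gave -0.18 ± 0.21 (SE; limma adjusted p = 0.485): JJN3 was higher by 0.52 in uninfected cells and by 0.24 with NT shRNA, and the difference was -0.61 with XBP1 shRNA and -0.89 with IRE1 shRNA.

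Of other translation genes in 5 lists, limma called 0 probe sets in the tested treatment comparisons and in the line by silencing term. Over all probe sets it called 0.00183% for IRE1 shRNA against uninfected cells and 0.0183% against NT shRNA. It called 0% for NT shRNA against uninfected cells and 0% for the line by silencing term. These lists were chosen with earlier results of these data known, so their shares are descriptions and no test of a list. The lists held cap complex partners (41 probe sets), mTORC1 and S6 kinase genes (45), other initiation factors (75), eIF2 kinases and phosphatase genes (13), and ATF4, a stress transcription factor, with genes it is known to act on (20). SESN2 and DDIT4 were in both the mTORC1 and the ATF4 list, so the shares of those lists count some probe sets in common. At an unadjusted p under 0.05 the counts for IRE1 shRNA against uninfected cells were 6, 12, 9, 2 and 14 in that order, or 14.6%, 26.7%, 12%, 15.4% and 70% of the lists, against 7.26% of all probe sets. Against NT shRNA they were 7, 9, 14, 2 and 16, or 17.1%, 20%, 18.7%, 15.4% and 80%, against 9.47% of all. For NT shRNA against uninfected cells they were 4, 3, 4, 1 and 0, or 9.76%, 6.67%, 5.33%, 7.69% and 0%, against 5.57% of all. For the line by silencing term they were 1, 3, 2, 1 and 10, or 2.44%, 6.67%, 2.67%, 7.69% and 50%, against 5.23% of all. The ATF4 list had a median of -1.09 for IRE1 shRNA against uninfected cells, where the median over all probe sets was 0.014. It was -0.25 in RPMI-8226 and -1.89 in JJN3, with 18 of 20 probe sets below 0. For XBP1 shRNA against NT shRNA, as a description, the list had a median of -0.74, where that over all probe sets was 0.00059. It was -0.36 in RPMI-8226 and -0.95 in JJN3, with 17 of 20 below 0. Between the lines, limma called 14 higher and 8 lower among cap complex partners, 10 and 16 among mTORC1 genes, 19 and 34 among other initiation factors, 2 and 3 among eIF2 kinase genes, and 2 and 6 in the ATF4 list. These were 53.7%, 57.8%, 70.7%, 38.5% and 40% of the lists, against 56.0% of all probe sets (22.8% higher and 33.3% lower). Among the largest differences between the lines, some were seen in 1 probe set of the gene. MKNK1, a kinase that phosphorylates eIF4E, was higher in JJN3 by 2.48 in 243256_at, while 209467_s_at gave 0.24 and 1560720_at 0.10 and did not pass. EIF2AK1, a kinase of eIF2, was higher by 2.27 in 217735_s_at, while 217736_s_at gave 0.24 and did not pass. DEPTOR, an mTOR inhibitor, gave -2.19 in 218858_at and 0.031 in 234071_at, which did not pass. EIF3H gave -1.98 in 230570_at, while 201592_at gave 0.18 and did not pass. In other genes all probe sets passed in the same direction. EIF5 was higher in JJN3 by 1.03 to 1.89 and GIGYF2, a partner of 4EHP, by 0.47 to 1.68, while EIF5A gave -2.34 to -1.51 and PSAT1, a serine synthesis enzyme, -2.06 and -1.79.

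As a description, list genes with a probe set past 2-fold in both lines with XBP1 shRNA against NT shRNA were SESN2 (-1.39 and -1.24 in its probe sets), an mTORC1 inhibitor, and DDIT3 (-1.17), which encodes CHOP. Against uninfected cells they were TRIB3 (-1.30, and -0.68 in its other probe set), EIF2S3 (-1.20, and -0.92 and -1.04) and DDX3X (1.16, and -0.18 to 0.96 in the others). IRE1 shRNA against XBP1 shRNA gave GIGYF2 at -1.63 (1558305_at, with -0.11 to -0.069 in its other probe sets) and EIF3H at 1.39 (230570_at, with -0.00051 in the other).

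The probe sets most like EIF4EBP1 over the 8 arrays, after each line was centred on its own mean, were taken from 1008 with a within-line SD of at least 0.5. They were SLC1A4, a neutral amino acid transporter (212811_x_at, r = 0.99; 209610_s_at, r = 0.99), TBC1D16 (r = 0.99), RND3 (r = 0.99) and CMTM7 (r = 0.98). SLC1A4 212811_x_at stood at 0.31, 0.40, -0.65 and 0.07 in RPMI-8226 and at 0.17, -0.07, -1.31 and -0.80 in JJN3, with its lowest value on the XBP1 shRNA array of each line. By the same measure EIF4G1 gave 0.83 and 0.81, EIF4G2 200004_at gave -0.86, and 3 EIF4E2 probe sets gave -0.84 to -0.88. The fourth EIF4E2 probe set, 213570_at, gave -0.58. The remaining probe sets of the genes described here ran from -0.68 to 0.71. The arrays are shared by all these values, and no p is given.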

How the data were processed

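RNA from 8 cultures was measured on Affymetrix U133 Plus 2.0 arrays. The authors' deposited values, taken here as log2, were made with RMA per the submitters' processing notes, which give no version, log base or centring. Each of 54675 probe sets had a median of 0 over 8 arrays (tolerance 1e-05). The number of arrays limits the precision. Genes were named from the array annotation where it gave 1 symbol. After 62 control probe sets were left out, limma 3.58.1 (R 4.3.3) was fitted to 54613 probe sets with treatment and line. Line was the block in treatment comparisons, and treatment was the block in the line comparison. Tests were two-sided, with Benjamini-Hochberg adjustment and a threshold of 0.05, and limma was tested on simulated data. The line block follows from the labels, in which same-numbered arrays are one line. Deviations from treatment means correlated at 0.897 to 0.929 between the RPMI-8226 arrays. With 2 arrays per treatment, 1 of each line, this restates that line differences were alike over treatments and is no separate support. With 1 culture per line and treatment, p-values of a treatment comparison measure how far it varied between the lines. For JJN3 against RPMI-8226 they measure how far the line difference varied over treatments. The line by silencing term had a separate fit, whose spread is that between the unlike treatments pooled in it. The members and lists were chosen with earlier results of these data known. Named were all members, of the lists the genes called or 2-fold in both lines (at most 8 a comparison, by size), and the 5 probe sets most like EIF4EBP1. Alternatives were 3 scalings, 2 probe set filters, robust eBayes, no block, another fold size, and each array left out. The scalings were applied to values already centred for each probe set, so cyclic loess followed average deviation and not signal level.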

Additional observations from a re-analysis of the deposited data

How the results depend on the processing

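Of 602 alternative values for 51 results, 549 stayed the same by the rule for their kind. A tested difference had to keep its direction and its side of the threshold. A count had to stay within 1.5-fold of the main count. A difference of XBP1 shRNA from NT shRNA, which has no threshold, had to keep its direction and move by less than the SD between the lines. Leaving out the treatment block gave 11 called probe sets between the lines in place of 14. Leaving out the line block gave 0 in each treatment comparison, as with it. With either IRE1 shRNA array left out, the EIF4EBP1 line difference reversed to 0.0487 (range -0.418 to 0.0487 over single arrays left out). Under cyclic loess it was -1.90 (limma adjusted p = 0.00677). Cyclic loess was run on values already centred for each probe set, where it follows average deviation and not signal level. No line difference is therefore read from that value. The cause of these shifts was not tested. NT shRNA against uninfected for EIF4EBP1 reversed to -0.457 without the uninfected RPMI-8226 array and to -0.272 without the NT shRNA JJN3 array (range -0.457 to 0.476). In this fit, leaving out 1 array also removes its pair from the line difference. Members past 2-fold the same way in both lines under cyclic loess numbered 1 for XBP1 shRNA against NT shRNA (2 otherwise), 0 for XBP1 shRNA against uninfected (1 otherwise) and 0 for IRE1 shRNA against XBP1 shRNA (1 otherwise). At 1.5-fold they numbered 7, 3 and 3, and 2 for IRE1 shRNA against NT shRNA (0 otherwise). Centred values show no signal over background.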
